A study of Hormonema carpetanum with 4 samples.

Results

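The 62 genes described here are the DNA repair genes of the fungus Hormonema carpetanum, which produces the antifungal glycoside enfumafungin. They were taken from the 10951 genes of an RNA-seq table by the name of their best Swiss-Prot hit, which had to speak of DNA or mismatch repair, excision, damage, a DNA glycosylase, AP endonuclease or ligase, a recombination protein, a photolyase or a DNA cross-link, and not of DNA replication, ubiquitin or a kinase. The 4 libraries came from mycelium of the wild-type strain ATCC 74360 at day 14, of the mutant ENF-5-29 at day 14, and, for day 18, of that mutant grown at 19 °C or at 25 °C, with 1 library in each group. The study raised enfumafungin output by mutagenesis and by changes to the fermentation; the labels name 1 mutant strain and not its mutations, give no temperature for the day 14 cultures, and state 18 days for both strains in the extraction protocol where the titles give day 14, which was followed. Since each group is 1 library, the differences below were not tested against replicates, and p-values are not given. Values are TPM, a level scaled by gene length and library total; read depth is lost in it, and the counting error of a value is therefore unknown. In bulk mycelium, fewer cells of a type and less RNA per cell cannot be told apart.

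Cells repair DNA by several routes that differ in the lesion they see. Mismatch repair removes copying errors, base excision repair removes altered bases by way of a glycosylase, and nucleotide excision repair cuts out bulky lesions such as those left by ultraviolet light. Breaks through both strands are mended by homologous recombination, which copies an intact duplex, or by end joining, which in filamentous fungi is a major route and sends incoming DNA to random places. Many of these proteins, among them flap endonuclease, the replicative ligase and the mismatch repair proteins, also act at the replication fork.

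Most of the names were those of repair proteins. By name, 8 genes belonged to mismatch repair, 3 to base excision and flap cutting, 1 to direct reversal, 7 to the repair and transcription factor TFIIH, 10 to the other steps of nucleotide excision, 9 to homologous recombination, 4 to meiotic recombination, 6 to ligation and cross-link repair, 10 to damage tolerance and 4 to damage signalling or other functions. Those 62 include 8 whose names point to meiosis, protein sumoylation, proteolysis, chromatin or transcription. The letters of AP endonuclease also matched 3 flap endonuclease models. A pair of msh6 models (gene09481 and gene10910) had identical values in all 4 libraries, so reads may have been shared between copies and their values are uncertain. A RAD5-like model (gene02521), listed at 0 in 3 libraries and at 0.1 TPM at 25 °C, also shared its values with other genes near 0. The msh-2 model (gene01077) carries alcohol oxidase domains, a model named DNA ligase (gene10065) carries a BRCT domain and the orthology name of replication factor C, and the rad16 (gene04305) and rad5 (gene10238) models carry sugar transporter domains beside their repair domains. The values of these 4 models may therefore mix or belong to other genes. Unlike domains or orthology names were listed for further models, among them rad1 (gene04697, Ost5), rec14 (gene03451, ribosomal L32p), ssl1 (gene08160, AP endonuclease) and gene00422 (NUP205). Those further models were kept where doubtful models were left out below.

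Repair transcripts were of modest abundance. Their summed level was 876.5 TPM in the wild type, 1447 TPM in the mutant at day 14, 1317 TPM (19 °C) and 1963 TPM (25 °C). The median gene stood at 6.38, 11.2, 7.24 and 13.04 TPM in the same order. At 10 TPM or more were 22, 34, 28 and 34 of the genes, and 41 reached that level in some library. The genes under 1 TPM in every library numbered 3, all of them RAD5-like helicase models. The highest level in the group was that of DDI1 (gene03271), at 331.1 TPM at 25 °C, and the summed level was highest in that library.

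**Figure D1:**
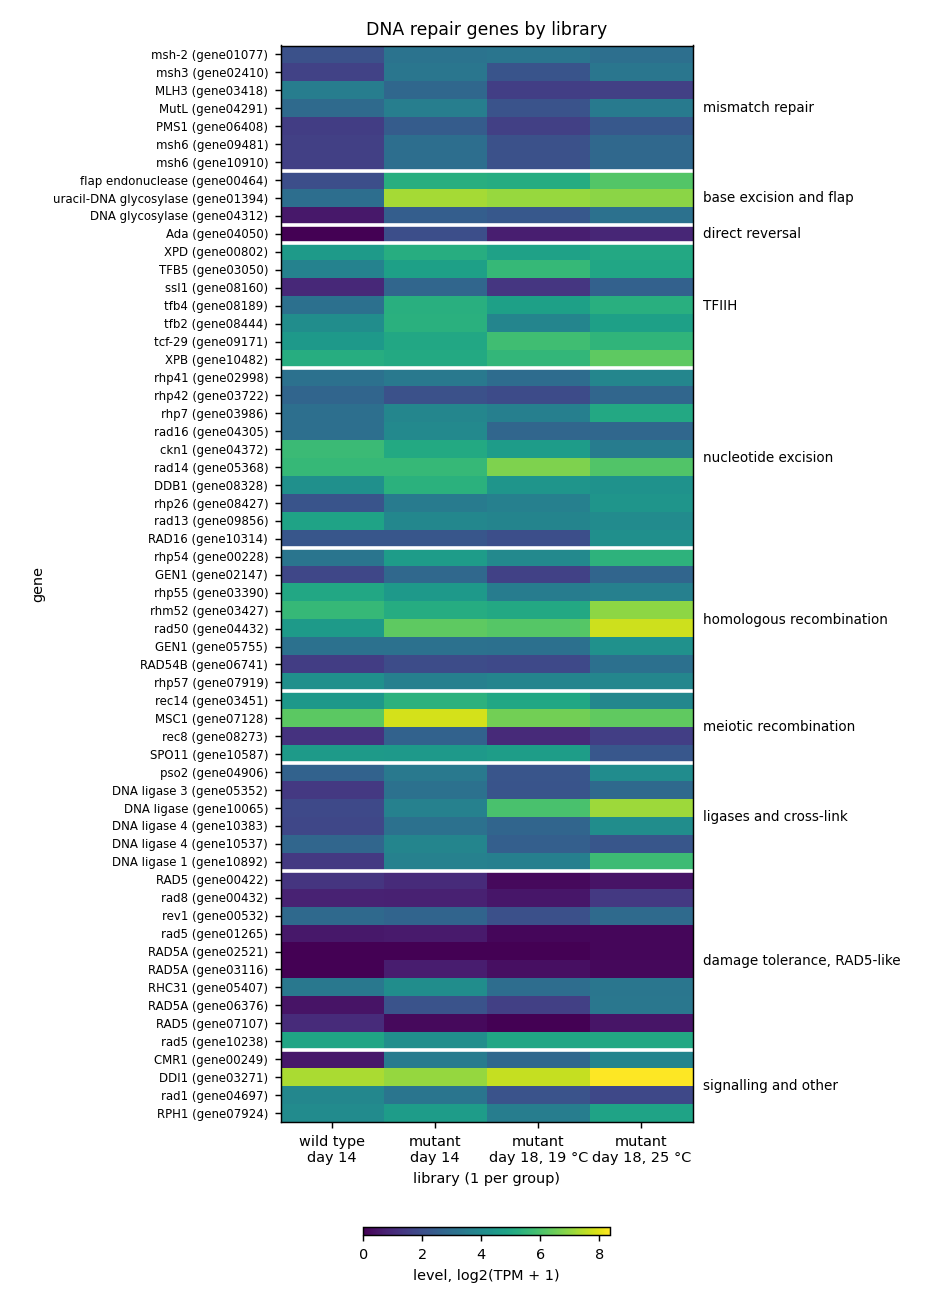
Levels of 60 of the 62 DNA repair genes (rows, by pathway) in the 4 libraries (columns, 1 per group), coloured by log2(TPM + 1). DDI1, uracil-DNA glycosylase, rad50 and MSC1 reached the highest levels, and most of the RAD5-like models stayed near 0.

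The mutant was compared with the wild type at day 14, on the scale of log2 of TPM plus 1. A gene was tested when it reached 1 TPM in either library and called at a 2-fold ratio. Of 58 tested repair genes, 27 passed 2-fold towards the mutant, 46.6% against 40.7% of all 9272 tested genes, so the share of higher genes lay near that of the whole table. At least 2-fold lower was 1 gene, 1.72% against 14% of all genes; it was rad13 (gene09856), the XPG-type nuclease of nucleotide excision. The median log2 ratio of the repair genes was 0.89 and that of all tested genes 0.64. Rescaling by the median ratio moved the ratio of all genes by -0.70. After it, 12 repair genes were higher and 11 lower, 20.7% and 19.0% of those tested, beside 24.7% and 26.0% of all genes, so the near absence of lower calls depended on the scaling. The largest ratios belonged to uracil-DNA glycosylase, flap endonuclease 1, CMR1 and DNA ligase 1, and these 4 were called higher with either scaling.

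At day 18 the mutant at 19 °C was compared with the mutant at 25 °C. Of 56 tested repair genes, 18 were at least 2-fold lower at 19 °C, 32.1% against 21.4% of all 9064 tested genes, and 3 were higher, 5.36% against 10.9%. The median log2 ratio was -0.75 for the repair genes and -0.21 for all tested genes. Rescaling by the median ratio left 13 lower, 23.2% against 17.5% of all genes, and 3 higher, 5.36% against 14.5%. The genes higher at 19 °C were SPO11 (gene10587), rec14 (gene03451) and ckn1 (gene04372). Among the lower genes were recombination genes, ligases and the RAD7 and RAD16 types of damage sensor. Between these libraries the median log2 ratio was -1.15 over 9 tested genes, of 10 listed, for very long proteins and 0.17 over 73 genes for very short ones. In the strain comparison the same lists had medians of 0.96 and 0.30, and of 0.19 and -0.47 after rescaling by the median ratio. Gene lengths were not used here, and the part of length or RNA quality in the result was not tested.

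Genes of DNA replication moved with both of these differences. Of 38 such genes, 33 were higher by 2-fold or more in the mutant at day 14 and 1 was lower, 86.8% and 2.63% against 40.7% and 14% of all genes. At 19 °C 20 were lower and 0 higher, 52.6% lower against 21.4% of all genes. After rescaling by the median ratio 26 were higher in the mutant, 68.4% against 24.7% of all genes. Lower at 19 °C were then 18, 47.4% against 17.5%. Their summed level was 430.7 TPM in the wild type, 1388 TPM in the mutant at day 14, 815.1 TPM (19 °C) and 1763 TPM (25 °C). Replication factor A protein 1 (gene00955), the main subunit of the complex that coats exposed strands in replication and repair, stood at 4.19 TPM for the wild type and 74.95 TPM for the mutant at day 14, then 35.6 TPM (19 °C) and 100.7 TPM (25 °C) at day 18. Ribonucleotide reductase, whose large chain is gene03460, makes the building blocks of DNA; this chain stood at 10.3, 49.8, 26.9 and 158.1 TPM. The replication gene with the lowest strain ratio was the GINS subunit PSF3 (gene09101), which went from 71.7 TPM (wild type) to 24.1 TPM (mutant), and that with the highest ratio of 19 °C over 25 °C was replication factor C subunit 4 (gene07695), at 12.7 and 8.01 TPM. The part of replication in the repair result was not tested.

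Some spore and conidiation genes differed between the strains. The list of spore and conidiation genes, 10 in all, summed to 130.5 TPM for the wild type and, for the mutant libraries, to between 830.8 and 1014 TPM. In the mutant libraries most of that was conidiation-specific protein 10 (gene06873), at 9.91, 688.2, 924.1 and 635.5 TPM in the order wild type, mutant at day 14, 19 °C and 25 °C. The conidial regulators wetA (gene02208) and abaA (gene06725) stayed between 0 and 0.11 TPM and between 1.05 and 4.55 TPM. Of 8 tested, 5 were higher and 1 lower in the mutant at day 14, 62.5% and 12.5% against 40.7% and 14% of all genes. After rescaling by the median ratio it was 3 and 1 of 7, 42.9% and 14.3% against 24.7% and 26.0%. Of 7 tested between temperatures, 2 were lower and 0 higher at 19 °C, 28.6% lower against 21.4% of all genes. After rescaling 1 was lower and 1 higher, 14.3% each against 17.5% and 14.5%. The spore wall gene DIT1 (gene05643) stood at 0.35 TPM for the wild type against 154.9 TPM for the mutant at day 14, and the kinase pit1 (gene10877) at 90.6 and 31.1 TPM there and at 9.5 and 67.3 TPM at 19 °C and 25 °C. The hyphal list matched 1 gene, the Woronin body membrane protein wscA (gene10235), at 595.1 TPM for the wild type and 490.7 TPM for the mutant at day 14, then 343.1 TPM (19 °C) and 261.4 TPM (25 °C) at day 18; it was not called between the strains as deposited, at a log2 ratio of -0.28, and was lower in the mutant after rescaling, at -1.05. The part of cell form in the repair result was not tested.

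**Figure D2:**
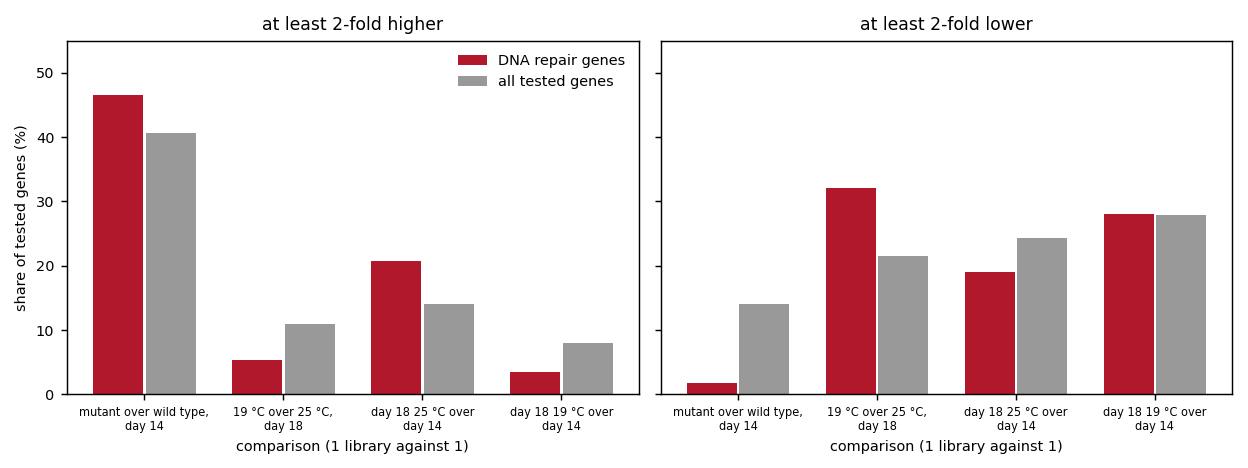
Share of tested genes (%) at least 2-fold higher (left) and lower (right) in each of 4 comparisons of 1 library with 1, for the DNA repair genes (red) and all tested genes (grey). With the deposited values, repair genes were seldom lower in the mutant at day 14 (1.72% against 14%; 19.0% against 26.0% after rescaling by the median ratio) and more often lower at 19 °C than at 25 °C (32.1% against 21.4%).

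Over time, both day 18 libraries were set against the mutant at day 14; these comparisons share that library with each other and with the strain comparison, and the temperature comparison uses the same day 18 libraries. At 25 °C, 12 of 58 tested repair genes were at least 2-fold higher than at day 14, 20.7% against 14.1% of all genes, and 11 were lower, 19.0% against 24.4%. At 19 °C, 2 of 57 were higher, 3.51% against 7.98%, and 16 were lower, 28.1% against 27.9%. The medians were 0.19 and -0.47, beside -0.30 and -0.55 for all tested genes. Rescaling by the median ratio moved the median at 19 °C to 0.06 and that of all genes to -0.04. It left 7 repair genes higher, 12.5% against 15.6% of all genes, and 2 lower, 3.57% against 10.8%. The sign of the repair median at 19 °C therefore depended on the scaling.

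The 4 libraries were also ranked within each gene, without a fold threshold. Of 59 repair genes at 1 TPM or more in some library, 28 had their highest value at 25 °C, 47.5% against 26.1% of 9508 genes. The wild-type value was the lowest for 30, 50.8% against 43% of all genes. The value at 19 °C was the lowest for 20, 33.9% beside 24.4% of all genes, and the wild-type value was the highest for 8, 13.6% beside 24.2%.

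Base excision repair held the largest log2 ratio between the strains; as a plain TPM fold, CMR1 (gene00249) was slightly larger, at 21.5-fold from a wild-type level of 0.47 TPM. Uracil-DNA glycosylase (gene01394), which removes uracil from DNA, stood at 7.13 TPM for the wild type and 150.1 TPM for the mutant at day 14, then 134.6 TPM (19 °C) and 119 TPM (25 °C) at day 18. The wild-type library stood 21.05-fold below the mutant at day 14, and the mutant libraries lay within 2-fold of one another. Flap endonuclease 1 (gene00464), which trims displaced strands in long-patch repair and at lagging-strand joints, stood at 3 TPM for the wild type and 37.4 TPM for the mutant at day 14, then 35.6 TPM (19 °C) and 68.99 TPM (25 °C) at day 18. A putative DNA glycosylase of the HhH-GPD type (gene04312), a fold shared by enzymes that remove damaged bases, stood at 0.44, 4.65, 3.97 and 7.65 TPM in the same order. All 3 were higher in the mutant at day 14 with the deposited values and after rescaling by the median ratio, beside 40.7% and 24.7% of all genes. In all 3 the wild-type library was the lowest, beside 43% of all genes. Outside the rule, the endonuclease III homolog (gene09236), which cuts at oxidised bases, stood at 5.82, 18.5, 17.7 and 7.97 TPM, and the apurinic endonuclease (gene00291), which opens the strand where a base is missing, at 14.3, 33.3, 18.4 and 27 TPM. The Ada-type gene (gene04050), named after the bacterial protein that takes alkyl groups off DNA, was listed at 0 for the wild type, while the mutant libraries held 3.07, 0.64 and 0.86 TPM.

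The 7 mismatch repair models given here were low in all libraries, at 1.92 to 10.9 TPM in the mutant and 1.84 to 10.7 TPM in the wild type. MutS-type proteins find the mispair and MutL-type proteins start its removal. Of 8 models, 5 passed 2-fold towards the mutant at day 14 and 0 lower, 62.5% higher against 40.7% of all genes. The higher calls include both msh6 models, whose values are identical, and the msh-2 model with oxidase domains. The share therefore counts 1 profile more than once and may count a gene of another function. After rescaling by the median ratio 1 was higher and 1 lower, 12.5% each against 24.7% and 26.0%. The msh3 gene (gene02410), whose partner complex recognises loops, stood at 2.14 TPM for the wild type and 8.78 TPM for the mutant at day 14, then 3.55 TPM (19 °C) and 8.84 TPM (25 °C) at day 18, and each of the msh6 models, of the complex for base mispairs, at 2, 7.17, 3.22 and 6.1 TPM in the same order. For these genes the wild-type library was the lowest. MLH3 (gene03418), known for its role in meiotic crossing over, went the other way, at 10.7, 5.95, 1.92 and 1.97 TPM, with the wild type highest. The MutL model (gene04291) stood at 6.49, 10.9, 3.45 and 9.69 TPM and the msh-2 model with oxidase domains at 3.24, 8.08, 8.49 and 7.41 TPM. PMS1 (gene06408), also of the MutL type, stayed between 1.84 and 4.36 TPM. Between temperatures, msh3 and the MutL model were at least 2-fold lower at 19 °C, 25% against 21.4% of all genes. None of the 8 was called higher, 0% against 10.9%. The call for msh3 was lost on rescaling by the median ratio, at -0.95, which left 12.5% lower against 17.5%. The shares of lower genes thus lay near those of the whole table.

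TFIIH opens DNA both at promoters and at lesions. Of 7 subunit genes, 4 were higher in the mutant at day 14, 0 were lower, 57.1% higher against 40.7% of all genes, and 2 were higher after rescaling by the median ratio, 28.6% against 24.7%. The tfb4 subunit (gene08189) stood at 7.44 TPM for the wild type and 38.1 TPM for the mutant at day 14, then 25.9 TPM (19 °C) and 38.3 TPM (25 °C) at day 18. The ssl1 subunit (gene08160) stood at 0.96, 5.85, 1.49 and 5 TPM in the same order, lowest in the wild type and at 19 °C, and tfb2 (gene08444) at 16.3, 39.2, 13.1 and 25.8 TPM. Both helicases, which do the unwinding, lay within 2-fold between the strains: XPD (gene00802) stood at 22.6, 36.5, 27.03 and 31.9 TPM and XPB (gene10482) at 36.03, 33.3, 45.4 and 78.4 TPM. XPB had its highest value at 25 °C. The small subunit TFB5 (gene03050), at 12.2, 26.1, 47.6 and 29.9 TPM, and the tcf-29 subunit (gene09171), at 22.4, 31.5, 54.98 and 43.5 TPM, had theirs at 19 °C. Between temperatures ssl1 was the 1 subunit past 2-fold, lower at 19 °C at a log2 ratio of -1.27, from the low values of 1.49 and 5 TPM. That made 14.3% lower and 0% higher, against 21.4% and 10.9% of all genes. After rescaling by the median ratio it was 14.3% lower against 17.5%.

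The other nucleotide excision genes did not share a direction between the strains. Of 10, 2 were higher and 1 lower in the mutant at day 14, 20% and 10% against 40.7% and 14% of all genes. After rescaling by the median ratio 0 were higher and 3 lower, 0% and 30% against 24.7% and 26.0%. Their median log2 ratio was 0.14 beside 0.64 for all genes, and -0.51 beside -0.08 after rescaling, below that of all genes both times. In yeasts, RAD7 and RAD16 together find lesions in silent chromatin. The rhp7 gene (gene03986), of the RAD7 type, stood at 7.36 TPM for the wild type and 13.3 TPM for the mutant at day 14, then 11.4 TPM (19 °C) and 32 TPM (25 °C) at day 18. RAD16 (gene10314) stood at 3.77 TPM for the wild type and 3.78 TPM for the mutant at day 14, then 3 TPM (19 °C) and 17.1 TPM (25 °C) at day 18, 5.72-fold lower at 19 °C than at 25 °C. For both genes the 25 °C library stood apart above the other 3. The 2 genes of the RAD4 or XPC type, which see distortions of the helix, were rhp41 (gene02998), at 7.64, 9.52, 6.75 and 13.5 TPM, and rhp42 (gene03722), which stayed between 2.76 and 5.83 TPM.

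Damage verification and cutting showed other orders of the libraries. The XPA-type gene rad14 (gene05368), which checks the lesion, stood at 48.1 TPM for the wild type and 48.3 TPM for the mutant at day 14, then 106.5 TPM (19 °C) and 67.7 TPM (25 °C) at day 18, highest at 19 °C. The XPG-type nuclease rad13 (gene09856), which cuts on one side of the lesion, stood at 28.2, 13.6, 12.7 and 15.4 TPM in the same order, highest in the wild type. The XPF-type rad16 model (gene04305), for the nuclease of the other side, stood at 7.34, 14.4, 5.78 and 5.96 TPM. In coupling repair to transcription, rhp26 (gene08427), of the CSB type, and ckn1 (gene04372), of the CSA type, ran in opposite orders. The first stood at 3.54, 10.2, 11.4 and 19.7 TPM, lowest in the wild type and highest at 25 °C. The latter stood at 50.9, 33.1, 23.5 and 10.5 TPM, highest in the wild type and lowest at 25 °C. DDB1 (gene08328), a subunit that carries damage sensors to a ligase complex, stood at 17.4, 39.8, 19.5 and 18.4 TPM, with the mutant at day 14 highest.

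**Figure D3:**
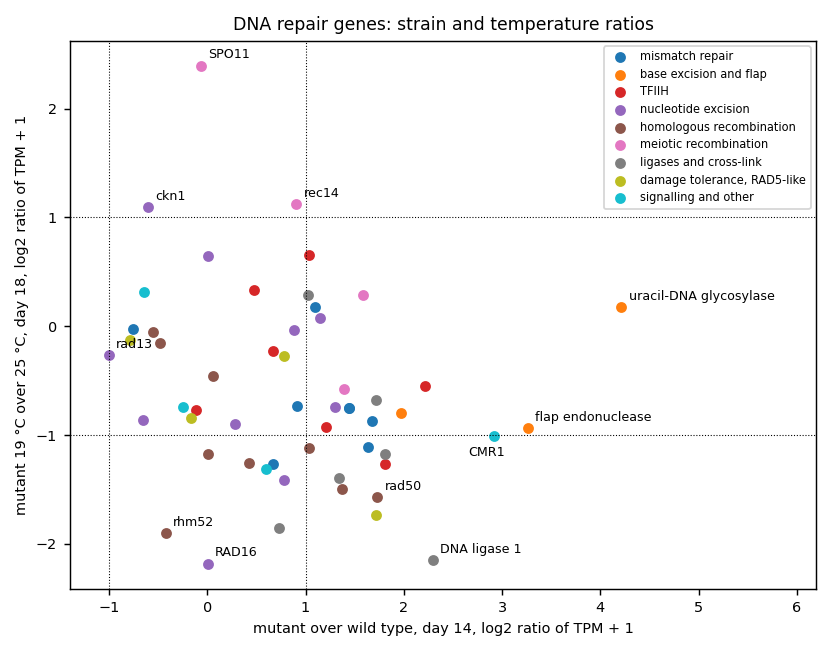
Log2 ratio of TPM + 1 of mutant over wild type at day 14 (x axis) against that of the mutant at 19 °C over 25 °C at day 18 (y axis) for the 55 repair genes tested in both; each point is a gene, coloured by pathway, and dotted lines mark 2-fold. In the lower right corner lie 10 genes that were higher in the mutant and lower at 19 °C, 18.2% against 10.5% of all genes tested in both; after rescaling by the median ratio 3 were left, DNA ligase 1, ssl1 and gene06376, 5.45% against 5.36%.

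Among homologous recombination genes, more passed 2-fold between temperatures than between strains. Of 9, 6 were at least 2-fold lower at 19 °C than at 25 °C and 0 higher, 66.7% lower against 21.4% of all genes. After rescaling by the median ratio 4 were lower, 44.4% against 17.5%. Between the strains 3 were higher and 0 lower in the mutant at day 14, 33.3% higher against 40.7% of all genes. All 3 of these calls were lost on rescaling, after which 3 others were lower, 33.3% against 26.0%. Rad50 (gene04432), which with MRE11 tethers and trims broken ends, stood at 22.8 TPM for the wild type and 77.9 TPM for the mutant at day 14, then 70.9 TPM (19 °C) and 212.3 TPM (25 °C) at day 18. The rhm52 gene (gene03427), of the RAD52 type that anneals strands, stood at 47.5 TPM for the wild type and 35.2 TPM for the mutant at day 14, then 32.5 TPM (19 °C) and 124.2 TPM (25 °C) at day 18. For both, the 25 °C library stood above every other library, 2.99-fold and 3.82-fold above that at 19 °C.

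The motor protein RAD54, here rhp54 (gene00228), which moves along the duplex during strand exchange, stood at 8.61, 23.9, 14.2 and 42.04 TPM in the order wild type, mutant at day 14, 19 °C and 25 °C, and the related RAD54B (gene06741) at 1.87, 2.86, 2.6 and 7.59 TPM, and both were at least 2-fold lower at 19 °C than at 25 °C. A further pair of recombination genes ran in another order. The rhp55 gene (gene03390) stood at 31.4, 22.2, 10.4 and 11.6 TPM and rhp57 (gene07919) at 17.4, 11.5, 12.7 and 13.3 TPM, with the wild type highest for each. Of the GEN1-type nucleases, which cut crossed junctions, gene05755 stood at 7.7, 7.77, 7.44 and 18.1 TPM and gene02147 at 2.48, 6.15, 2.06 and 5.63 TPM; both were lower at 19 °C than at 25 °C as deposited, at log2 ratios of -1.17 and -1.12, and neither call held after rescaling by the median ratio.

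The 4 genes with meiotic names were at least 2-fold lower at day 18 at 25 °C than in the mutant at day 14, beside 24.4% of all genes, and 3 of them after rescaling by the median ratio, beside 15.0% of all genes. SPO11 (gene10587), the topoisomerase relative that makes the meiotic breaks, stood at 22.9 TPM for the wild type and 21.9 TPM for the mutant at day 14, then 24.6 TPM (19 °C) and 3.86 TPM (25 °C) at day 18; the 25 °C library was low and the other 3 lay within a narrow range. Rec14 (gene03451), a WD40 protein that assists it in fission yeast and whose listed orthology is the RNA decay factor SKI8, stood at 21.1, 40.4, 31.1 and 13.7 TPM, also lowest at 25 °C. The cohesin subunit rec8 (gene08273) stood at 1.36, 5.17, 0.99 and 1.96 TPM. MSC1 (gene07128), named in budding yeast for meiotic exchange between sister chromatids, stood at 76.03, 229.4, 96.4 and 78.9 TPM and was highest in the mutant at day 14.

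Ligases close the last nick of most repair routes, and 5 of the 6 genes of the ligase and cross-link group were higher in the mutant at day 14, with 0 lower, 83.3% higher against 40.7% of all genes. After rescaling by the median ratio 3 were higher, 50% against 24.7%. They were DNA ligase 1, DNA ligase 3 and gene10065, the BRCT-domain model whose values may belong to another gene. DNA ligase 1 (gene10892), which joins replication fragments, stood at 1.62 TPM for the wild type and 11.8 TPM for the mutant at day 14, then 11.1 TPM (19 °C) and 52.98 TPM (25 °C) at day 18. It was 7.31-fold higher in the mutant than in the wild type at day 14 and 4.76-fold lower at 19 °C than at 25 °C. DNA ligase 4 is the ligase of end joining. Its model gene10383 stood at 2.44, 7.7, 5.57 and 16.3 TPM, highest at 25 °C, whereas gene10537, with the same orthology, stood at 5.83, 12.9, 4.84 and 3.78 TPM, highest in the mutant at day 14. DNA ligase 3 (gene05352) stood at 1.65, 7.7, 3.54 and 6.24 TPM. The cross-link repair nuclease pso2 (gene04906), needed in yeasts after agents that tie both strands together, stood at 5.27, 9.37, 3.66 and 15.9 TPM, 4.33-fold lower at 19 °C than at 25 °C. The BRCT-domain model named DNA ligase (gene10065) stood at 2.64 TPM for the wild type and 11.8 TPM for the mutant at day 14, then 61.7 TPM (19 °C) and 140.7 TPM (25 °C) at day 18, and its day 18 values lay above both day 14 values.

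**Figure D4:**
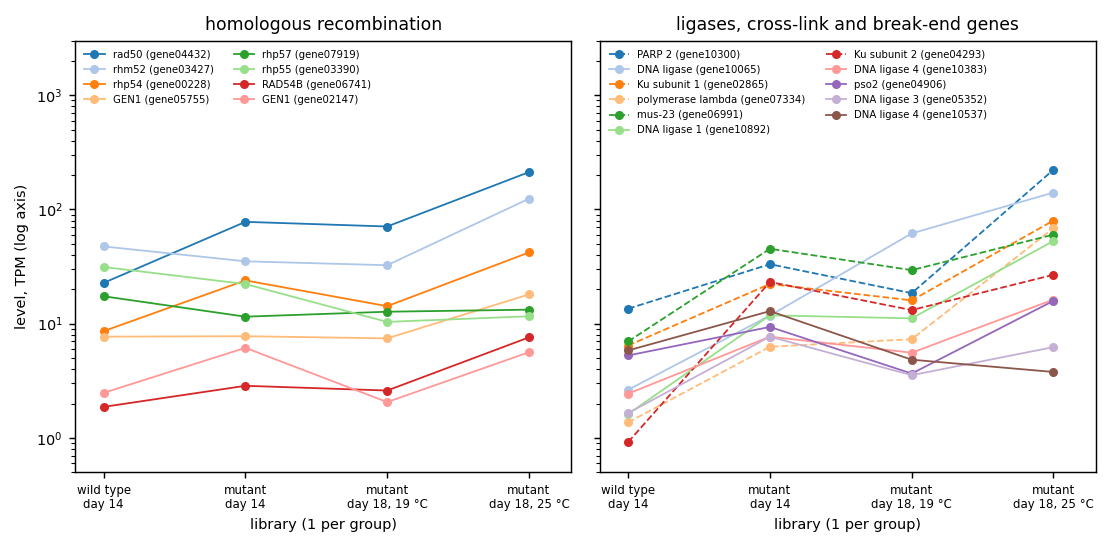
Levels (TPM, log axis) in the 4 libraries (1 per group) of 8 homologous recombination genes (left) and of 6 ligase and cross-link genes with 5 further genes of broken ends drawn dashed (right); lines join the values of a gene. Rad50, rhm52, DNA ligase 1 and PARP 2 stood highest at 25 °C, and rhp55 and rhp57 stood highest in the wild type.

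Damage tolerance lets replication pass a lesion. Of its 10 genes, 6 were tested between the strains. Of these, 1 was higher and 0 lower in the mutant at day 14, 16.7% and 0% against 40.7% and 14% of all genes. After rescaling by the median ratio 1 was higher and 2 lower, 16.7% and 33.3% against 24.7% and 26.0%. The rad5 model with a HIRAN domain (gene10238), the domain arrangement of the yeast tolerance helicase, stood at 29.5 TPM for the wild type and 16.7 TPM for the mutant at day 14, then 29.8 TPM (19 °C) and 32.5 TPM (25 °C) at day 18. Another RAD5-like helicase (gene06376), whose listed orthology name is SMARCC, stood at 0.35, 3.45, 2 and 9 TPM in the same order, highest at 25 °C. Rev1 (gene00532), which inserts bases opposite lesions, stayed between 3.15 and 6.44 TPM. The RAD5-like models gene00422, gene00432, gene01265, gene02521, gene03116 and gene07107 did not pass 1.64 TPM in any library, and gene02521 was listed at 0 in 3 of the 4. RHC31 (gene05407), a subunit of the enzyme that activates the modifier SUMO, stood at 9.14, 16.4, 7.04 and 8.73 TPM.

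Among the genes of damage signalling and other functions, DDI1 (gene03271), a protease that shuttles proteins to the proteasome, stood at 158.1 TPM for the wild type and 132.9 TPM for the mutant at day 14, then 197.8 TPM (19 °C) and 331.1 TPM (25 °C) at day 18, highest at 25 °C. The checkpoint clamp subunit rad1 (gene04697) stood at 13.8, 8.49, 3.42 and 2.55 TPM in the same order, highest in the wild type. CMR1 (gene00249), a WD40 protein that binds damaged DNA in yeast, stood at 0.47, 10.1, 5.88 and 12.8 TPM, and was called lower at 19 °C at a log2 ratio of -1.01 as deposited but not after rescaling by the median ratio, at -0.84. RPH1 (gene07924), a histone demethylase that represses damage-response genes in budding yeast, stood at 15.5, 23.9, 10.6 and 27.8 TPM, lowest at 19 °C.

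Further genes of repair and damage signalling that the rule does not match by name numbered 39. Of these, 19 were at least 2-fold higher and 3 lower in the mutant at day 14, 48.7% and 7.69% against 40.7% and 14% of all genes. After rescaling by the median ratio it was 9 and 6, 23.1% and 15.4% against 24.7% and 26.0%, so the shares of higher genes lay near those of the whole table. Of 37 tested between temperatures, 11 were lower at 19 °C and 1 higher, 29.7% and 2.70% against 21.4% and 10.9%. After rescaling by the median ratio 8 of 38 were lower and 1 higher, 21.1% and 2.63% against 17.5% and 14.5%. Ku, the ring that caps broken ends for end joining, gave the largest strain ratio through its subunit 2 (gene04293), at 0.92 TPM for the wild type and 23.2 TPM for the mutant at day 14, then 13.2 TPM (19 °C) and 26.8 TPM (25 °C) at day 18. The lesion-bypass polymerase kappa (gene09803) gave the smallest, at 30.4, 11.1, 9.49 and 11.6 TPM in the same order. The lowest ratio of 19 °C over 25 °C was that of poly(ADP-ribose) polymerase 2 (gene10300), which marks breaks, at 13.5, 33.2, 18.5 and 222.8 TPM, 12.04-fold lower at 19 °C, and the highest that of the endonuclease III homolog given above.

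Several genes of broken ends had their highest value at 25 °C. The following were chosen after their values were seen. Ku subunit 1 (gene02865) stood at 6.44, 22.3, 16 and 80.05 TPM, and polymerase lambda (gene07334), which fills gaps in end joining, at 1.37, 6.28, 7.32 and 68.7 TPM. The MRE11-type gene mus-23 (gene06991), the nuclease partner of Rad50, stood at 6.99, 45.3, 29.4 and 60.3 TPM. The checkpoint kinase CHK1 (gene04499), which delays division while DNA is damaged, stood at 0.34, 9.47, 5.82 and 18.6 TPM. In each of these 4 genes the 25 °C library was the highest and the wild type the lowest, beside 26.1% and 43% of all genes taken singly. Since their order was seen before they were chosen, it does not describe the other repair genes. Among those, exodeoxyribonuclease 1 (gene01507) and structural maintenance of chromosomes protein 5 (gene08533) were highest in the mutant at day 14. A polymerase iota hit (gene06339), for another lesion-bypass enzyme, stood at 18.9, 8.96, 5.51 and 4.41 TPM, highest in the wild type.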

How the data were processed

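Per the labels' protocols, libraries were prepared from total RNA of mycelium (SMARTER mRNA-Seq kit). The authors deposited TPM values, rounded to 2 decimals, for 10951 genes and 4 libraries; each column sums to 1000000 within rounding. For the aligner, counter, build and annotation, no statement was found: not given in the sources used here. Depth is unknown. TPM sets each value against the library total, and very high genes thus depress the rest.

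Columns were matched to samples by library name. Members were matched on the Swiss-Prot name; pathways were assigned from names. Ratios are differences of log2(TPM + 1), for genes at 1 TPM in either library, called at 2-fold; folds are plain TPM ratios. Median rescaling used genes that reached 1 TPM in each library. No count model and no test was run, with 1 library per group. Members and lists were chosen with earlier results of these data known. Members given with values in every library reached 10 TPM somewhere or a 2-fold strain or temperature ratio; from other lists, the extreme ratios at 10 TPM or more. The photolyase, cryptochrome, replication, checkpoint and cell-form genes beyond these were chosen after values were seen. The short-protein list also caught larger spliceosome proteins. The values of 2 members are not reported here, though the counts include them. Steps were checked on simulated data. Tools were Python 3.11.15, pandas 2.3.3, numpy 2.4.6 and matplotlib 3.10.9.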

Additional observations from a re-analysis of the deposited data

How the results depend on the processing

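No paired analysis was possible because each group has 1 library. For the same reason no library could be left out within a group. A count moved when it differed by over 1.5 times, a median when it differed by that fold on the log2 scale. Of 144 recomputed values, 109 stayed within these bounds, 33 moved and 2 changed sign. Counts and not shares were compared, so a count can move with the number of genes tested. The causes were not tested. In the strain comparison the 27 higher genes, of 58 tested, became 12 with a pseudocount of 5, beside 31.3% of all genes. With a filter of 10 TPM they became 15 of 36 tested, beside 44.6%, and at a 4-fold threshold 6, beside 18.1%. They became 12 after rescaling by the median ratio, beside 24.7%. With the other repair genes added they were 46 of 97 tested, beside 40.7%. The 1 lower gene became 2 with a pseudocount of 0.1 (15.8% of all genes) and 0 with a pseudocount of 5 (9.6%). The count was 0 at 4-fold (4.92%) and 11 of 58 after median rescaling, 19.0% beside 26.0% of all genes. With the other repair genes it was 4 of 97 tested, beside 14% of all genes. The median of 0.89 became 0.17 after median rescaling, beside -0.08 for all genes. Between temperatures the 18 lower genes, of 56 tested, became 11 with a pseudocount of 5 (14.1% of all genes) and 2 at 4-fold (5.27%). With the other repair genes they were 29 of 93 tested, beside 21.4%. The 3 higher genes became 1 with a pseudocount of 5 (7.08%), 1 at 4-fold (2.58%) and 1 of 48 without 8 members of other functions (10.9%). That last alternative was added after seeing the data. Over time at 25 °C the 12 higher genes became 2 at 4-fold (4.41% of all genes). The 11 lower genes became 5 with a pseudocount of 5 (16.6%), 7 of 39 with a filter of 10 TPM (26.6%) and 1 at 4-fold (4.68%). The count was 6 of 57 after median rescaling (15.0%) and 7 of 50 without the 8 members (24.4%). The median turned from 0.19 to -0.081 with the other repair genes. Over time at 19 °C the 2 higher genes became 1 at 4-fold (2.38% of all genes) and 7 of 56 after median rescaling (15.6%). Without 5 doubtful gene models, an alternative also added later, the count was 1 of 52 (7.98%). The 16 lower genes became 2 with a pseudocount of 5 (16.3%), 8 of 34 with a filter of 10 TPM (28.8%) and 0 at 4-fold (3.62%). The count was 2 of 56 after median rescaling (10.8%) and 30 of 96 with the other repair genes (27.9%). The median turned from -0.47 to 0.058 after median rescaling. The 30 genes lowest in the wild type, of 59, became 19 of 41 with a filter of 10 TPM, beside 47.0% of all genes. With the other repair genes they were 50 of 98, beside 43.0%. The count of 28 genes highest at 25 °C kept within 1.5 times under every alternative run for it. Low values limit what the RAD5-like models and the mismatch repair genes can show.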

Other observations

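Photolyases, which reverse ultraviolet lesions with light, are spelled photo-lyase in this table and so lie outside the rule; they were looked up after the values were seen. The photolyase models gene02467 and gene03756 stood at 0.45, 0.43, 0.2 and 2.57 TPM and at 0.64, 0.24, 0.04 and 0.49 TPM in the order wild type, mutant at day 14, 19 °C and 25 °C. A cryptochrome DASH model (gene08396), of the same protein family, stood at 1.6, 5.82, 7.5 and 6.65 TPM, and a cryptochrome model (gene04634) at 1.39, 1.56, 0.37 and 0.8 TPM. The UV-damage endonuclease gene (gene05962), of a light-independent route known from fungi, stood at 0.89, 3.16, 2.15 and 4.25 TPM. None of these 5 genes reached 10 TPM in any library.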
